A study of Mus musculus with 6 samples.

Results

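The contacts described here join the 3' regulatory region of the mouse immunoglobulin heavy chain locus (Igh) to its V genes. They are the 5C primer pairs with the midpoint of one restriction fragment in the enhancer region past the constant genes and that of the other in the V array, both on chromosome 12 (mm9). The rule uses position alone and finds 564 of the 12656 possible Igh primer pairs. They comprise 8 fragments of the 3' regulatory region (3'RR), 4 with a forward and 4 with a reverse primer, and 141 fragments of the V array, 70 forward and 71 reverse.

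5C (chromosome conformation capture carbon copy) counts ligation products between HindIII fragments, and each product needs 1 forward and 1 reverse primer. The series mapped such contacts over Igh, and over a gene desert on chromosome 5, in 3 cell types with 2 biological replicates each. Resting B cells were CD43- splenic cells taken straight from the spleen with magnetic beads, pro-B cells were Rag2 deficient bone marrow cells grown with IL7 for 4 days, and MEF (mouse embryonic fibroblasts) came from culture. Cell type, Rag2 genotype and culture therefore differ together between the groups and cannot be told apart. The labels give no strain, age or treatment beyond these, and read counts of contacts hold no marker genes with which the labelled cell types could be checked.

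In B lineage cells the V(D)J recombinase, made of Rag1 and Rag2, joins a D segment to a J segment and then a V gene to the D-J join, and the DNA in between is usually lost from the chromosome. The 3'RR lies past the last constant gene and holds a cluster of enhancers that drive heavy chain transcription and class switching in mature B and plasma cells, next to a group of CTCF sites at its far end. Pro-B cells are the stage at which the V array folds towards the D-J segments, and without Rag2 their alleles stay unrearranged, whereas resting B cells carry rearranged alleles.

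From the far 3' end towards the constant genes, the 3'RR fragments are REV 22 (ending at 114441221), FOR 23 (114441222 to 114447060), REV 24 (114447061 to 114449887), FOR 25 (114449888 to 114450784), REV 27 (114459545 to 114465908), FOR 28 (114465909 to 114474052), REV 29 (114474053 to 114474922) and FOR 31 (starting at 114477117). A forward fragment was read with the 71 reverse V fragments and a reverse fragment with the 70 forward ones. Neighbouring 3'RR fragments thus see different V fragments, and a level cannot be compared between fragments because primers differ in efficiency. The V array was described in 4 stretches by midpoint, called proximal V (19 fragments, nearest the D-J segments), middle V (51), near distal V (43) and far distal V (28). No mm9 annotation was used, so single enhancers and V genes are not assigned to fragments. The midpoints of paired fragments were 338 to 2752 kb apart.

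Valid read pairs per library numbered 20580457 to 24191175. Of the Igh reads, 3'RR to V pairs held 4.2% and 9.11% in resting B replicates 1 and 2, 1.36% and 1.96% in pro-B replicates 1 and 2, and 1.33% and 1.20% in MEF replicates 1 and 2. Pairs with 0 reads numbered 18 and 35 in the resting B libraries, 13 and 36 in the pro-B libraries and 19 and 14 in the MEF libraries, and a count of 0 allows up to 3 reads. In CPM (reads per 1e6 of the library after TMM scaling) that limit is 0.109 to 0.175. Over the 564 pairs, which are not independent, Pearson's r between the log2 (CPM + 1) values of replicates was 0.975 for resting B cells, 0.759 for pro-B cells and 0.921 for MEF. The pro-B replicates were the least alike.

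In resting B cells a single pair held most of the reads. FOR 31 with REV 545, a near distal V fragment at 116342486 to 116353413 and 1869 kb away, had 594468 and 1520284 reads in the resting B libraries, 22244 and 169302 in the pro-B libraries, and 96787 and 41877 in the MEF libraries. It held 74.3% (95% Wilson interval 74.2 to 74.4) and 88.0% (88.0 to 88.1) of the 3'RR to V reads in resting B cells, against 7.95% (7.85 to 8.05) and 41.6% (41.5 to 41.8) in pro-B cells, and 32.8% (32.7 to 33.0) and 16.5% (16.4 to 16.7) in MEF. Both resting B libraries lay above the other 4, and the replicates of each cell type differed by over 2-fold, with the pair passing in no comparison. Its log2 fold was 3.73 ± 1.08 (SE, n = 2 each) for resting B over MEF (adjusted p = 0.122) and 3.49 ± 1.07 for resting B over pro-B (adjusted p = 0.0834) in edgeR's quasi-likelihood test with Benjamini-Hochberg adjustment over Igh pairs. Without this pair the share of Igh reads was 1.08% and 1.09% in the resting B, 1.25% and 1.14% in the pro-B, and 0.896% and 0.999% in the MEF libraries.

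The second most abundant pair shared the same V fragment and ran the other way. FOR 25 with REV 545 had 8673 and 11915 reads in the resting B, 25144 and 21126 in the pro-B, and 113701 and 81320 in the MEF libraries. The 3 cell types did not overlap, and the pair was lower in resting B cells than in MEF (log2 fold -3.39 ± 0.57, SE, adjusted p = 0.0476 in the same edgeR test). Its fold was -2.04 ± 0.54 for pro-B over MEF (adjusted p = 0.394). REV 545 also had the second highest read total with the gene desert of the 141 V fragments (112732 reads over the 6 libraries). The highest, FOR 126 (114823610 to 114829182, proximal V, 122150 desert reads), was in the third most abundant pair, with REV 27. The part of these desert reads in the pair values was not tested.

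Summed by stretch of the V array, the 3'RR had more reads per library with the proximal V genes in pro-B cells than in MEF or resting B cells, and more with the far distal V genes in resting B cells than in MEF, under the main scaling and without a distance correction. With proximal V the sums were 2758 and 3181 CPM in the resting B, 6531 and 4028 in the pro-B, and 1574 and 1838 in the MEF libraries. All 3 cell types were separate in these sums. The pro-B over MEF log2 fold was 1.63 ± 0.29 (SE, n = 2 each, adjusted p = 0.00866), the resting B over MEF fold 0.80 ± 0.28 (adjusted p = 0.0406), and the resting B over pro-B fold -0.83 ± 0.28 (adjusted p = 0.0436), by edgeR's quasi-likelihood test over 55 pairs of Igh regions. Among those 55, 9.09% passed for pro-B over MEF, 49.1% for resting B over MEF and 41.8% for resting B over pro-B. Both resting B calls lie near the threshold. Of the proximal sums, REV 27 alone held 4531 and 2292 CPM in the pro-B libraries. It held 1576 and 1888 CPM in the resting B and 773 and 916 CPM in the MEF libraries. That part includes its pair with the V fragment named above for the most desert reads. Proximal folds without REV 27 or without that pair were not tested. All 3 proximal calls ended under the other scales: on total Igh reads the folds were 1.49 (adjusted p = 0.144), 0.98 (adjusted p = 0.162) and -0.52 (adjusted p = 0.465) in the same order, and on desert reads 1.68 (adjusted p = 0.369), 1.22 (adjusted p = 0.205) and -0.45 (adjusted p = 0.656).

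With far distal V, the sums were 1588 and 1657 CPM in the resting B, 1517 and 908 in the pro-B, and 677 and 612 in the MEF libraries. Resting B cells were higher than MEF (log2 fold 1.33 ± 0.30, adjusted p = 0.00829). Pro-B cells lay between them without overlap and passed against neither (pro-B over MEF 0.91 ± 0.30, adjusted p = 0.0800, and resting B over pro-B 0.42 ± 0.30, adjusted p = 0.228; edgeR). With a correction for the distance between fragments this order turned: pro-B over MEF was 1.73 (adjusted p = 0.0116), resting B over MEF 0.65 (adjusted p = 0.0880) and resting B over pro-B -1.08 (adjusted p = 0.0204). On desert reads the resting B over MEF fold was 1.81 (adjusted p = 0.0703). With middle V the sums were 1841 and 1929 CPM in the resting B, 2742 and 2322 in the pro-B, and 1490 and 1439 in the MEF libraries. The cell types were again separate there, but no comparison passed (pro-B over MEF 0.79 ± 0.24, adjusted p = 0.0672, resting B over MEF 0.36 ± 0.24, adjusted p = 0.201, and resting B over pro-B -0.43 ± 0.24, adjusted p = 0.144; edgeR).

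The near distal sums followed FOR 31 with REV 545. They were 27334 and 73176 CPM in the resting B, 5181 and 10021 in the pro-B, and 13487 and 5361 in the MEF libraries, and resting B cells were higher than MEF (log2 fold 2.41 ± 0.60, adjusted p = 0.0108) and than pro-B cells (2.72 ± 0.61, adjusted p = 0.0118; edgeR). Without that pair they were 2418 and 2811 CPM in the resting B, 3912 and 2830 in the pro-B, and 7829 and 3834 in the MEF libraries. The sign then turned: resting B cells were lower than MEF (-1.16 ± 0.34, adjusted p = 0.0210) and did not differ from pro-B cells past the threshold (-0.37 ± 0.34, adjusted p = 0.355). Without any pair of REV 545, which also takes out FOR 25 with REV 545, the sums were 1989 and 2157 CPM in the resting B, 2353 and 1645 in the pro-B, and 1094 and 812 in the MEF libraries. Both B lineage groups were then higher than MEF (resting B over MEF 1.12 ± 0.29, adjusted p = 0.0103, and pro-B over MEF 1.08 ± 0.29, adjusted p = 0.0382), and resting B over pro-B was 0.05 ± 0.28 (adjusted p = 0.880; edgeR). Leaving out REV 545 was chosen after the values were seen and drops a pair that was highest in MEF. These 2 calls over MEF therefore cannot be read as support. The direction of the near distal comparison with MEF thus depends on a few primer pairs.

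**Figure D1:**
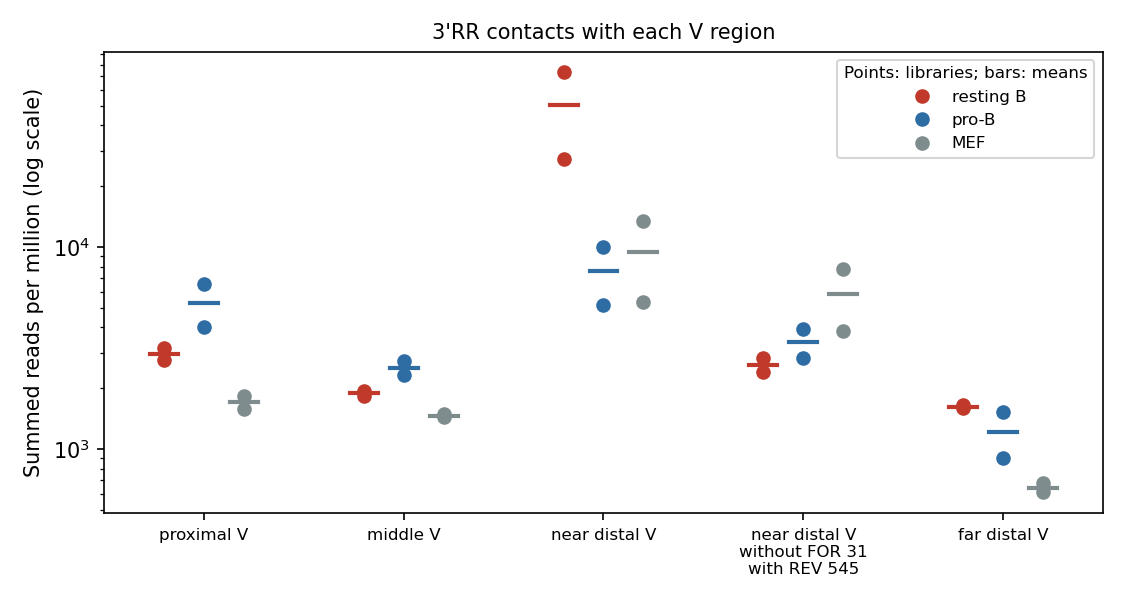
Summed reads of the 3'RR with each stretch of the V array, in CPM on a log scale, for each of the 2 libraries (points) and their mean (bars) in resting B cells, pro-B cells and MEF. With proximal V the 2 pro-B libraries lie at 6531 and 4028, above resting B cells and MEF, and the near distal sums of resting B cells stand at 27334 and 73176, and at 2418 and 2811 without FOR 31 with REV 545.

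Some of these calls rest on single libraries. The proximal pro-B over MEF call was lost without MEF replicate 1 (log2 fold 1.52, adjusted p = 0.164) and without MEF replicate 2 (1.67, adjusted p = 0.107). The proximal resting B over MEF call was lost without any one of the MEF and resting B libraries, with folds of 0.69 to 0.91, and the proximal resting B over pro-B call held solely without pro-B replicate 2 (-1.15). The far distal resting B over MEF call was lost without MEF replicate 1 (1.40, adjusted p = 0.0727) and without MEF replicate 2 (1.26, adjusted p = 0.0710). The near distal resting B over MEF call was lost without MEF replicate 2 (1.89, adjusted p = 0.140) and was 1.54 without resting B replicate 2, while the near distal resting B over pro-B call held without each of the 6 libraries in turn. With each primer pair counted once in place of sums, the proximal resting B over MEF call (0.13, adjusted p = 0.349) and the near distal resting B over pro-B call (0.075, adjusted p = 0.570) were lost, while proximal V kept its pro-B over MEF call (0.87, adjusted p = 0.00984) and its resting B over pro-B call (-0.73, adjusted p = 0.00198; limma), on a log2 (CPM + 1) scale that understates low pairs.

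Pair by pair, most 3'RR to V contacts were read more in pro-B cells than in MEF, though no single pair passed the threshold there. Of the 564 pairs, 527 had at least 10 reads in at least 2 libraries and were tested, and 37 were not. The median log2 fold over the tested pairs was 0.97 for pro-B over MEF, with 417 above 0, against 0.03 over all 11940 tested Igh pairs. It was 0.30 for resting B over MEF (297 above 0, all Igh pairs -0.02) and -0.61 for resting B over pro-B (194 above 0, all Igh pairs 0.01). Of the 527, 92 had under 10 reads in both resting B libraries, 20 in both pro-B libraries and 29 in both MEF libraries, and so entered through the other groups. Each median mixes 8 fragments that did not move alike. The 3 comparisons share libraries, so their folds are not independent of each other.

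Between pro-B cells and MEF, 0 of the 527 passed with edgeR, as did 0% of all tested Igh pairs, 91 passed an unadjusted p of 0.05, and with DESeq2 24 were higher and 6 lower. Between resting B cells and MEF, 1 pair was higher and 2 lower, where 1.26% of all tested Igh pairs passed (0.628% higher and 0.637% lower). Between resting B and pro-B cells, 7 were higher and 35 lower, where 8.22% passed (2.85% higher and 5.37% lower). The shares of the 527 lie below that background, except for the lower pairs of resting B over pro-B, which lie near it, so the counts are no result about these pairs. Without any one of the MEF libraries or of the resting B libraries, no pair passed in either resting B comparison. Without pro-B replicate 1 the counts were 161 (pro-B over MEF), 131 (resting B over MEF) and 214 (resting B over pro-B), against 32, 138 and 189 without pro-B replicate 2, so single-pair calls depend on which libraries set the spread.

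The 8 fragments fell into different patterns. Toward the far 3' end, REV 22, FOR 23 and REV 24 had their highest median levels with the V array in pro-B cells. FOR 23 had a median over its 71 V partners of 0.251 and 0.0926 CPM in the resting B, 3.54 and 2.25 CPM in the pro-B, and 0.643 and 0.912 CPM in the MEF libraries. REV 24 had 0.293 and 0.208 CPM in the resting B, 2.25 and 2.02 CPM in the pro-B, and 1.17 and 0.584 CPM in the MEF libraries. For both fragments the 3 cell types did not overlap, with pro-B cells highest and resting B cells lowest, and the FOR 23 median of resting B replicate 2 lay under the level of 3 reads (0.139 CPM). REV 22 had 2.68 and 2.45 CPM in the resting B, 5.22 and 5.54 CPM in the pro-B, and 1.78 and 2.96 CPM in the MEF libraries, so that resting B cells and MEF overlapped.

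Counted over all partners, tested or not, the mean CPM of FOR 23 was higher in pro-B cells than in MEF for 70 of 71 V fragments and equal for 1, and lower in resting B than pro-B cells for 66. REV 24 was higher in pro-B cells than in MEF for 59 of 70 and lower in resting B than pro-B cells for 66. REV 22 was higher in pro-B cells than in MEF for 64 of 70 and lower in resting B than pro-B cells for 55. Over all 564 pairs the same counts were 440 and 361. Partners of one fragment share its primer and are not independent, and the low levels are close to 0 reads. The median log2 folds over tested partners were 2.14 (pro-B over MEF), -1.82 (resting B over MEF) and -3.92 (resting B over pro-B) for FOR 23, 1.13, -1.92 and -2.90 for REV 24, and 1.5, 0.33 and -1.11 for REV 22. These medians cannot be read as support: of the tested partners, 37 of 64 for FOR 23 and 31 of 59 for REV 24 had under 10 reads in both resting B libraries and entered through the groups where they were higher. Of the 35 pairs lower in resting B than pro-B cells, 16 held FOR 23, 10 REV 24, 4 REV 22, 4 FOR 28 and 1 FOR 25.

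FOR 25 had medians of 0.880 and 0.602 CPM in the resting B, 1.94 and 3.36 CPM in the pro-B, and 0.877 and 0.876 CPM in the MEF libraries, and so was high in pro-B cells with resting B cells and MEF overlapping. Its median folds were 1.51 for pro-B over MEF, -0.29 for resting B over MEF and -1.51 for resting B over pro-B, with 17 of its 62 tested partners under 10 reads in both resting B libraries. The middle fragments REV 27 and FOR 28 moved less between the B lineage groups. REV 27 had 24.4 and 24.3 CPM in the resting B, 28.3 and 15.0 CPM in the pro-B, and 12.3 and 12.1 CPM in the MEF libraries, and its median folds were 1.10 over MEF in both cell types and 0.05 between them. FOR 28 had 10.2 and 8.01 CPM in the resting B, 14.8 and 8.83 CPM in the pro-B, and 9.88 and 9.30 CPM in the MEF libraries. All 3 groups overlapped or touched for FOR 28, with median folds of 0.50, -0.21 and -0.57.

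At the constant end the order changed. REV 29 had 4.61 and 3.63 CPM in the resting B, 1.08 and 0.234 CPM in the pro-B, and 1.93 and 1.90 CPM in the MEF libraries, so resting B cells were highest and pro-B cells lowest. Over all 70 partners its mean CPM was higher in resting B than pro-B cells for 58. Its median folds over tested partners were -0.66 for pro-B over MEF, 1.11 for resting B over MEF and 1.66 for resting B over pro-B, with 16 of the 67 under 10 reads in both pro-B libraries. FOR 31, the end fragment, had 14.4 and 17.5 CPM in the resting B, 6.68 and 14.3 CPM in the pro-B, and 8.07 and 6.82 CPM in the MEF libraries. Resting B cells were above the other 4 libraries, narrowly so for pro-B replicate 2, and the medians were 0.44, 1.11 and 0.77, with the most abundant pair counting as 1 of the 70 tested.

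**Figure D2:**
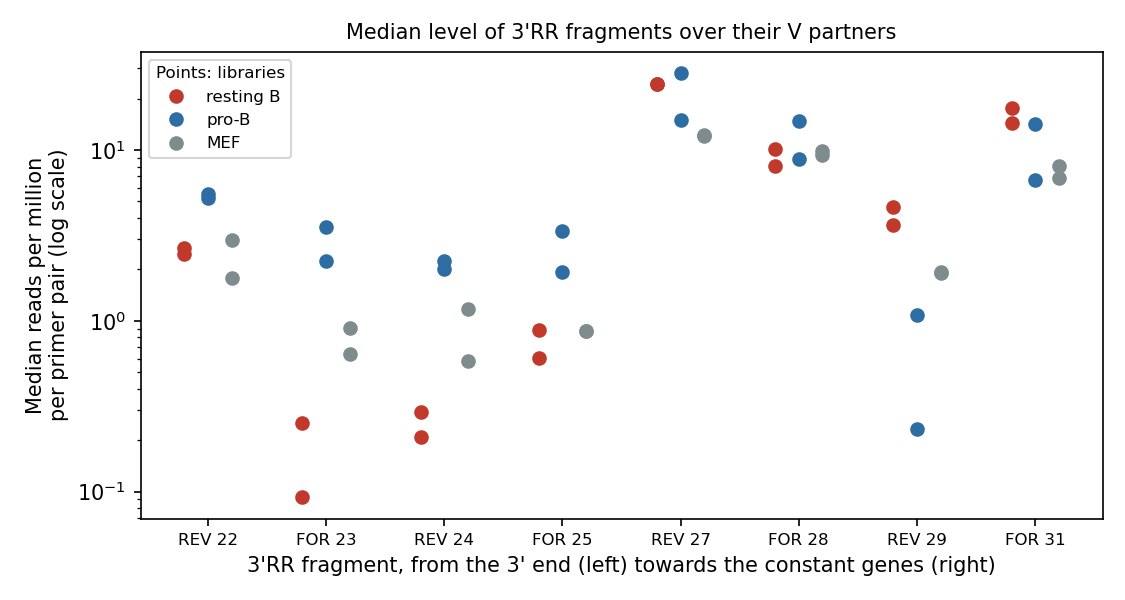
Median CPM over the V partners (71 for forward and 70 for reverse fragments) of each 3'RR fragment, on a log scale, with 1 point per library for resting B cells, pro-B cells and MEF. FOR 23 and REV 24 lie lowest in resting B cells and highest in pro-B cells, and REV 29 lies highest in resting B cells and lowest in pro-B cells.

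Reads of each 3'RR fragment summed over each V stretch gave 32 values per comparison, tested with all 2240 fragment by region sums of Igh. For pro-B over MEF, 5 were higher and 0 lower, where 1.43% of all sums passed (1.38% higher and 0.0446% lower). These were FOR 23 with proximal (2.66 ± 0.35, SE, adjusted p = 0.0229), middle (2.04 ± 0.30, adjusted p = 0.0255) and near distal V (2.32 ± 0.35, adjusted p = 0.0275), REV 24 with proximal V (1.79 ± 0.26, adjusted p = 0.0255) and REV 22 with proximal V (1.81 ± 0.30, adjusted p = 0.0428; edgeR). FOR 23 with proximal V had 15.6 and 14.5 CPM in the resting B, 241 and 150 CPM in the pro-B, and 25.6 and 36.3 CPM in the MEF libraries. Thus these calls lay in 3 neighbouring fragments at the far 3' end. Most of the proximal V reads of pro-B cells were with REV 27, which is not among them. All 5 were lost without any one of the MEF and resting B libraries, and 14 and 15 sums passed without pro-B replicate 1 and without pro-B replicate 2. With total Igh reads as the scale the split was 3 higher and 1 lower, and with desert reads 2 and 1.

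Of the 32 sums, 5 were higher and 12 lower for resting B over pro-B, where 36% of all sums passed (18.2% higher and 17.8% lower). FOR 23 was lower with all 4 stretches (-3.70 with proximal, -3.27 with middle, -2.17 with near distal and -2.98 with far distal V, adjusted p = 0.00275 to 0.00761), and so was REV 24 (-2.18, -3.48, -2.18 and -2.57, adjusted p = 0.00321 to 0.0145; edgeR). REV 24 with middle V had 14.5 and 11.3 CPM in the resting B, 141 and 146 CPM in the pro-B, and 98.8 and 43.3 CPM in the MEF libraries. REV 22 was lower with proximal (-1.08), middle (-1.14) and near distal V (-1.12), and FOR 25 with far distal V (-1.77).

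REV 29 was higher in resting B than pro-B cells with all 4 stretches: 1.06 ± 0.31 with proximal (adjusted p = 0.0370), 1.00 ± 0.32 with middle (adjusted p = 0.0486), 1.88 ± 0.28 with near distal (adjusted p = 0.00475) and 2.85 ± 0.40 with far distal V (adjusted p = 0.00413; edgeR). With far distal V it had 122 and 120 CPM in the resting B, 22.5 and 11 CPM in the pro-B, and 33.7 and 35.4 CPM in the MEF libraries. The 3 groups were separate, with pro-B cells lowest. FOR 31 was higher with near distal V (3.43 ± 1.03, adjusted p = 0.0391), and lost that call without its pair with REV 545 (1.08 ± 0.49, adjusted p = 0.124; edgeR). Of these 17 calls, 13 and 10 held without MEF replicate 1 and without MEF replicate 2, 4 without resting B replicate 1, none without resting B replicate 2, and 16 without either pro-B library. With total Igh reads as the scale 3 were higher and 8 lower, and with desert reads 2 and 3. With a correction for the distance between fragments, 1 was higher and 16 lower. Of 11 alternative settings, the REV 29 calls held in 7 with proximal, 5 with middle, 9 with near distal and 11 with far distal V.

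Against MEF, 6 of the 32 sums of resting B cells were higher and 4 lower, where 31.8% of all sums passed (19.2% higher and 12.6% lower). Both shares of the 32 are at that background, so the counts are no result about these fragments, and the calls are given as single values. REV 29 was higher with proximal (1.04), near distal (1.63) and far distal V (1.80), REV 22 (1.57) and REV 27 (1.75) with far distal V, and FOR 31 with near distal V (3.69, adjusted p = 0.0362, and 1.72, adjusted p = 0.0377, without its pair with REV 545; edgeR). REV 24 was lower with middle (-2.46 ± 0.43, adjusted p = 0.00826) and far distal V (-2.02 ± 0.56, adjusted p = 0.0338), FOR 23 with middle V (-1.24 ± 0.29, adjusted p = 0.0200) and FOR 25 with near distal V (-3.23 ± 0.52, adjusted p = 0.00650; edgeR). The FOR 25 value rests on 1 partner, since without REV 545 it was 1.00 (adjusted p = 0.125). All 10 calls were lost without MEF replicate 1, without resting B replicate 1 and without resting B replicate 2, 4 held without MEF replicate 2, and 23 sums passed without either pro-B library. With total Igh reads as the scale 8 were higher and 2 lower, and with desert reads 5 and 1. With the distance correction, 1 was higher and 4 lower.

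**Figure D3:**
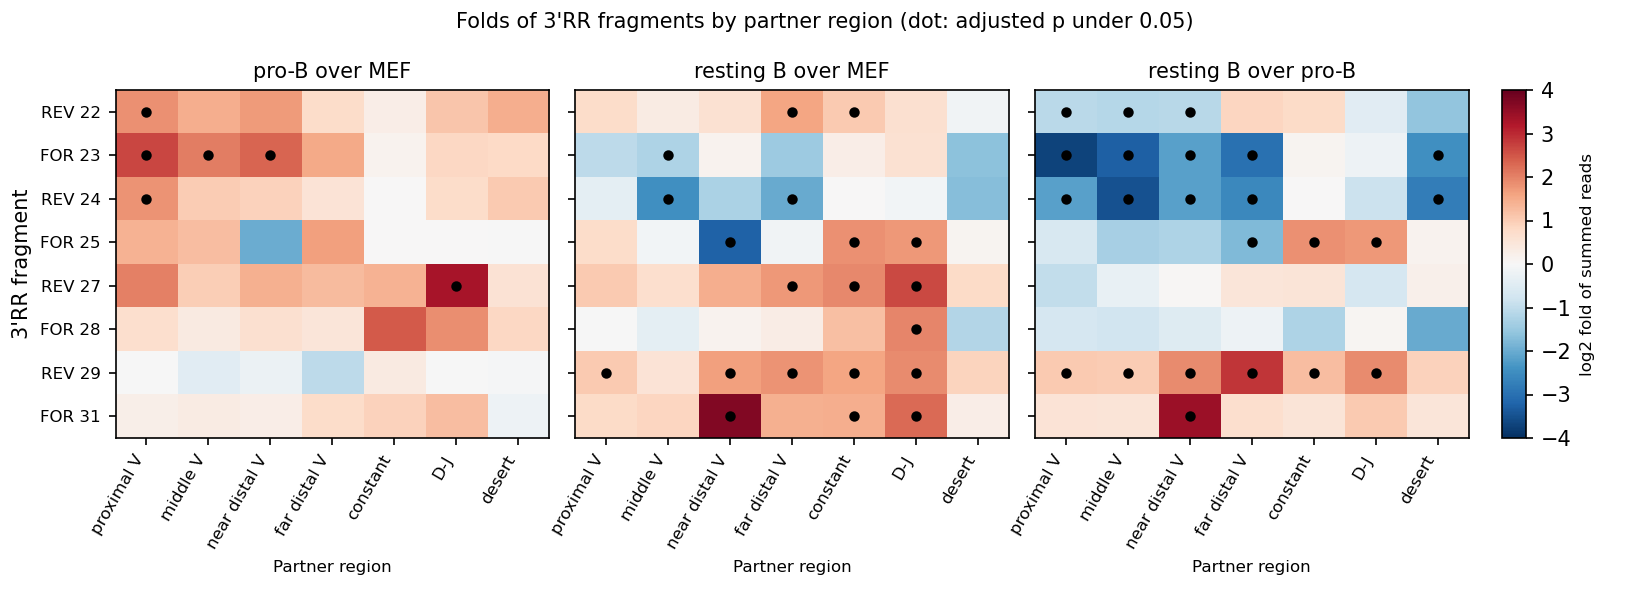
Log2 folds of the summed reads of each 3'RR fragment (rows, far 3' end at the top) with each V stretch, the constant genes, the D-J segments and the gene desert (columns) for the 3 comparisons, with a dot where the adjusted p is under 0.05. For resting B over pro-B, FOR 23 and REV 24 are negative with all 4 V stretches (-2.17 to -3.70) and with the desert, and REV 29 is positive with V (1.00 to 2.85).

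The gene desert values moved in the same direction for several of these fragments. Reads of FOR 23 with the desert were 103 and 116 in the resting B, 123 and 645 in the pro-B, and 173 and 115 in the MEF libraries, and those of REV 24 were 164 and 258, 389 and 723, and 366 and 197 in the same order. All Igh reads with the desert were 0.554% of valid pairs in pro-B replicate 1, against 2.02% to 3.41% in the other libraries. Scaling thus raised the desert values of that library most, and before it the FOR 23 reads there lay near the resting B ones. After scaling, both were lower in resting B than pro-B cells (FOR 23 -2.46 ± 0.48, adjusted p = 0.00531, and REV 24 -2.75 ± 0.60, adjusted p = 0.00915, edgeR over 224 fragments), where 8.93% of Igh fragments passed (6.25% lower). These 2 were lost without MEF replicate 1 and without MEF replicate 2. FOR 28 (-2.03, adjusted p = 0.0507) and REV 22 (-1.58, adjusted p = 0.0695) missed the threshold. The 8 desert folds of pro-B over MEF lay between -0.20 (FOR 31) and 1.44 (REV 22), none passed, and 1 had an unadjusted p under 0.05. The 8 desert folds of resting B over MEF lay between -1.71 (REV 24) and 0.89 (REV 29), none passed, and 2 had an unadjusted p under 0.05.

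The ratio of a fragment's V reads to its desert reads, a comparison added after the values were seen and with REV 545 left out, changed for none of the 8 fragments past the threshold in limma over 224 fragments. Between resting B and pro-B cells, where 3.57% of fragments passed, the change was -0.29 ± 0.57 for FOR 23, -0.15 ± 0.69 for REV 24 and 0.44 ± 0.52 for REV 29. The 8 changes there lay between -0.84 ± 0.84 (FOR 25) and 1.05 ± 0.64 (FOR 28). The largest of the 8 changes for pro-B over MEF was 1.32 ± 0.57 for FOR 23 (adjusted p = 0.556), where 0.446% passed, and for resting B over MEF, where 0% passed, the 8 lay between 0.06 (FOR 25) and 1.12 (FOR 28). The desert reads of single fragments are few, and these ratios have wide errors. Fewer copies or poorer recovery of a fragment and fewer contacts cannot be told apart from V reads of pooled cells alone.

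**Figure D4:**
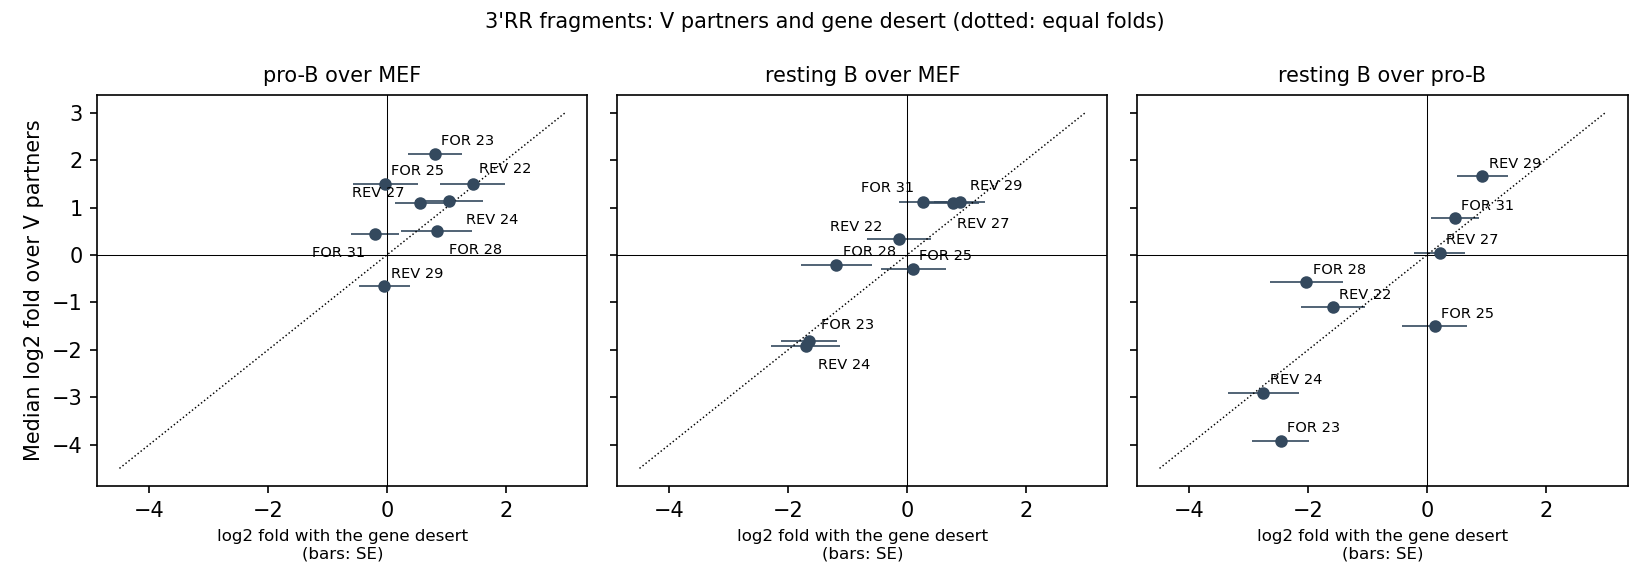
Median log2 fold of each 3'RR fragment over its V partners (vertical axis) against the log2 fold of its reads with the gene desert (horizontal axis, bars are SE), with equal folds on the dotted line, for the 3 comparisons. For resting B over pro-B, FOR 23 and REV 24 lie at -2.46 and -2.75 on the desert axis, and FOR 25 lies at 0.13 there with a V median of -1.51.

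The ratio of V reads to reads with the constant genes and D-J segments was lower in resting B than pro-B cells for the 4 fragments at the far 3' end. Such a ratio can fall through fewer V reads or through more of the other reads. Of the FOR 25 sums with V stretches, only that with far distal V passed lower by itself. The log2 change of that ratio, added after the values were seen, was -1.44 ± 0.33 for REV 22 (adjusted p = 0.0129), -2.79 ± 0.32 for FOR 23 (adjusted p = 0.00262), -2.34 ± 0.37 for REV 24 (adjusted p = 0.00495) and -2.56 ± 0.34 for FOR 25 (adjusted p = 0.00314; limma). It lay between -0.47 and 0.39 for the other 4, which did not pass. Such a fall was common over the locus, since 69.6% of the 224 Igh fragments passed lower and 73.2% in either direction. Within the 3'RR, FOR 23 had 174 and 155 CPM with the constant genes in the resting B, 179 and 123 CPM in the pro-B, and 127 and 148 CPM in the MEF libraries. Its V sums differed several-fold between resting B and pro-B cells. This is 1 of the 4 fragments and its D-J reads are not given here. Which part of a ratio moved was not tested. Against MEF, the ratio in resting B cells passed lower for REV 24 (-1.40), FOR 25 (-1.36) and FOR 28 (-1.36), where 52.2% of fragments passed, and for pro-B over MEF none of the 224 passed.

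Single pairs past the threshold are parts of the fragment sums above and were named by order of p. They are given as examples and are no further support for those sums. FOR 23 with REV 187, a proximal V fragment at 115061883 to 115074065, had 13 and 11 reads in the resting B, 1222 and 814 in the pro-B, and 49 and 160 in the MEF libraries (resting B over pro-B -6.61 ± 0.74, adjusted p = 0.0171). REV 24 with FOR 334 (middle V) had 23 and 25 reads in the resting B, 547 and 601 in the pro-B, and 249 and 170 in the MEF libraries (-4.73 ± 0.69, adjusted p = 0.0206). FOR 23 with REV 545 had 66 and 41 reads in the resting B, 664 and 3111 in the pro-B, and 147 and 315 in the MEF libraries (-5.18 ± 0.75, adjusted p = 0.0206). In these 3 pairs both pro-B libraries lay above both MEF libraries and both MEF libraries above both resting B libraries.

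REV 24 with FOR 694, in far distal V, was lower in resting B cells than in both other groups, with 2 and 7 reads in the resting B, 491 and 306 in the pro-B, and 232 and 199 in the MEF libraries (resting B over pro-B -6.63 ± 0.99, adjusted p = 0.0208, and resting B over MEF -5.65 ± 0.95, adjusted p = 0.0476). REV 22 with FOR 233 (middle V) had 142 and 65 reads in the resting B, 730 and 2100 in the pro-B, and 233 and 434 in the MEF libraries (resting B over pro-B -3.87 ± 0.62, adjusted p = 0.0237). REV 24 with FOR 126, the proximal fragment with the most desert reads, had 322 and 311, 1358 and 1937, and 396 and 547 in the same order (-2.52 ± 0.40, adjusted p = 0.0235). These edgeR folds, like those of the 3 pairs above, belong to pairs chosen with the groups separated. That they held their sign without each library in turn follows from that choice and is no support. REV 24 with FOR 694 entered the test through the pro-B and MEF libraries, where it was higher.

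Among the 7 pairs higher in resting B than pro-B cells, FOR 31 with REV 435 (near distal V, 115877939 to 115880010) had 917 and 1356 reads in the resting B, 29 and 11 in the pro-B, and 247 and 386 in the MEF libraries (5.59 ± 0.77, adjusted p = 0.0206). FOR 28 with REV 435 had 953 and 739, 120 and 132, and 195 and 400 in the same order (2.57 ± 0.48, adjusted p = 0.0311). In both pairs of REV 435 pro-B cells were lowest. REV 22 with FOR 624 (far distal V) had 1031 and 1174 reads in the resting B, 50 and 154 in the pro-B, and 152 and 238 in the MEF libraries (3.37 ± 0.58, adjusted p = 0.0269; edgeR). Here the unscaled reads of pro-B cells and MEF overlapped, while in CPM pro-B cells lay below MEF.

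The other 4 of the 7 were FOR 28 with REV 571 and 3 pairs of REV 29, with FOR 283, FOR 402 and FOR 634. FOR 28 with REV 571 (near distal V) had 1040 and 878 reads in the resting B, 200 and 134 in the pro-B, and 156 and 170 in the MEF libraries. The 3 pairs of REV 29 had 142 to 250 reads in resting B cells and 0 to 6 in pro-B cells, so their folds are poorly bounded. The 1 pair higher in resting B cells than in MEF was REV 27 with FOR 419 (near distal V, 115824507 to 115826299), with 915 and 1162 reads in the resting B, 412 and 261 in the pro-B, and 78 and 80 in the MEF libraries (3.62 ± 0.60, adjusted p = 0.0476; edgeR).

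For pro-B over MEF the 5 separated pairs with the lowest p in each direction did not pass. The higher ones were FOR 23 with REV 187 (3.58 ± 0.63) and with REV 137 (2.91 ± 0.56), FOR 126 with REV 22 (1.98 ± 0.37) and with REV 24 (1.89 ± 0.39), and FOR 130 with REV 27 (1.96 ± 0.41), with adjusted p = 0.310 to 0.325. The lower ones were FOR 31 with REV 435 (-3.76 ± 0.71), REV 29 with FOR 283 and with FOR 634, FOR 25 with REV 545 and FOR 28 with REV 457 (-2.99 ± 0.85), with adjusted p = 0.325 to 0.426. All 5 of the higher ones lie in proximal V. REV 27 with FOR 126, the third most abundant pair, had 19932 and 22290 reads in the resting B, 37071 and 29217 in the pro-B, and 7104 and 12928 in the MEF libraries (pro-B over MEF 1.92 ± 0.42, adjusted p = 0.354; edgeR). The cell types were separate there without passing.

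Contacts with the whole 3'RR were also summed for each V fragment. Of the 141 V fragments, 140 were tested in the fit over 2240 sums. Against MEF, 18 were higher and 1 lower in resting B cells, where 31.8% of all sums passed, and 11 of the 18 lie in near distal V, 4 in far distal, 2 in middle and 1 in proximal V. The median log2 fold was 0.36 over proximal, 0.29 over middle, 1.15 over near distal and 0.90 over far distal V. Against pro-B cells, where 36% of all sums passed, 8 were higher, of which 7 lie in near distal and 1 in far distal V, and 14 were lower, of which 4 lie in proximal, 7 in middle, 2 in near distal and 1 in far distal V. The medians were -0.76, -0.38, 0.15 and 0.19 in the same order. For pro-B over MEF, FOR 130 (proximal V, 114838820 to 114840677) alone was higher (1.64 ± 0.29, adjusted p = 0.0475; edgeR), where 1.43% of all sums passed, with medians of 1.09, 0.71, 0.92 and 0.87. The shares of V fragments called, in either direction, lie below those over all sums in all 3 comparisons, and no test compared the stretches with each other, so the counts by stretch describe where the called fragments lie and are no result about position.

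These counts depended on single libraries and on the scale. Without MEF replicate 1, MEF replicate 2, resting B replicate 1 and resting B replicate 2 in turn, the V fragments that passed numbered 0, 3, 0 and 0 against MEF and 11, 9, 1 and 0 against pro-B cells. Without pro-B replicate 1 and without pro-B replicate 2, 62 and 63 passed against MEF and 40 and 54 against pro-B cells. For pro-B over MEF, 0 passed without any one of the MEF and resting B libraries, and 44 and 47 without pro-B replicate 1 and without pro-B replicate 2. With total Igh reads as the scale the resting B over pro-B split was 9 higher and 1 lower, and with desert reads 3 and 1. With a distance correction that split was 1 higher and 23 lower.

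Among the V fragments higher in resting B cells than in MEF, FOR 419 had 49.1 and 68.9 CPM in the resting B, 26.6 and 12.8 CPM in the pro-B, and 6.90 and 4.20 CPM in the MEF libraries (log2 fold 3.41 ± 0.52, adjusted p = 0.00607). FOR 346 (middle V, 115628291 to 115630212) had 81.7 and 74.5, 38.8 and 56.2, and 22.0 and 14.3 CPM in the same order (2.11 ± 0.36, adjusted p = 0.00750). In both, resting B cells were highest and MEF lowest without overlap. REV 571 (near distal V, 116433753 to 116436207) had 112 and 96.0 CPM in the resting B, 28.7 and 44.9 CPM in the pro-B, and 25.6 and 12.5 CPM in the MEF libraries (2.45 ± 0.44, adjusted p = 0.00896). FOR 501 (near distal V, 1.75 ± 0.34, adjusted p = 0.0109) and FOR 624 (far distal V, 2.55 ± 0.57, adjusted p = 0.0173; edgeR) were the other 2 named by order of p. Their desert folds lay between -0.51 and 0.47 and none passed.

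Between resting B and pro-B cells, REV 435 had 107 and 118 CPM in the resting B, 14.8 and 6.16 CPM in the pro-B, and 33.7 and 35.0 CPM in the MEF libraries (3.42 ± 0.46, adjusted p = 0.00391). REV 457 (near distal V, 115972764 to 115974287) had 15.1 and 15.7, 2.57 and 3.27, and 11.6 and 8.90 CPM in the same order (2.40 ± 0.45, adjusted p = 0.00878). Both lie in near distal V and were lowest in pro-B cells, below MEF. REV 571 (1.49 ± 0.42) and FOR 513 (1.44 ± 0.41) were also higher, and REV 545 (3.10 ± 0.84, adjusted p = 0.0275; edgeR) was higher through FOR 31, with -1.34 ± 0.47 (adjusted p = 0.0633) once that pair was left out.

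The lower V fragments named by order of p were REV 260 (middle V, 115327864 to 115330485, -1.69 ± 0.31, adjusted p = 0.00796), REV 187 (-1.62 ± 0.33, adjusted p = 0.0108), REV 345 (middle V, -2.10 ± 0.52, adjusted p = 0.0206), REV 464 (near distal V, -1.18 ± 0.30, adjusted p = 0.0221) and FOR 233 (-1.01 ± 0.27, adjusted p = 0.0266; edgeR). REV 260 had 15.8 and 16.9 CPM in the resting B, 52.4 and 53.1 CPM in the pro-B, and 35.8 and 33.6 CPM in the MEF libraries, and was the 1 V fragment lower in resting B cells than in MEF too (-1.08 ± 0.30, adjusted p = 0.0341). REV 187 had 41.5 and 59.9, 189 and 123, and 72.0 and 77.1 CPM in the same order. Desert folds of these 5 for resting B over pro-B were also below 0, from -0.61 to -1.37, and none passed. Their part in the V values was not tested.

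**Figure D5:**
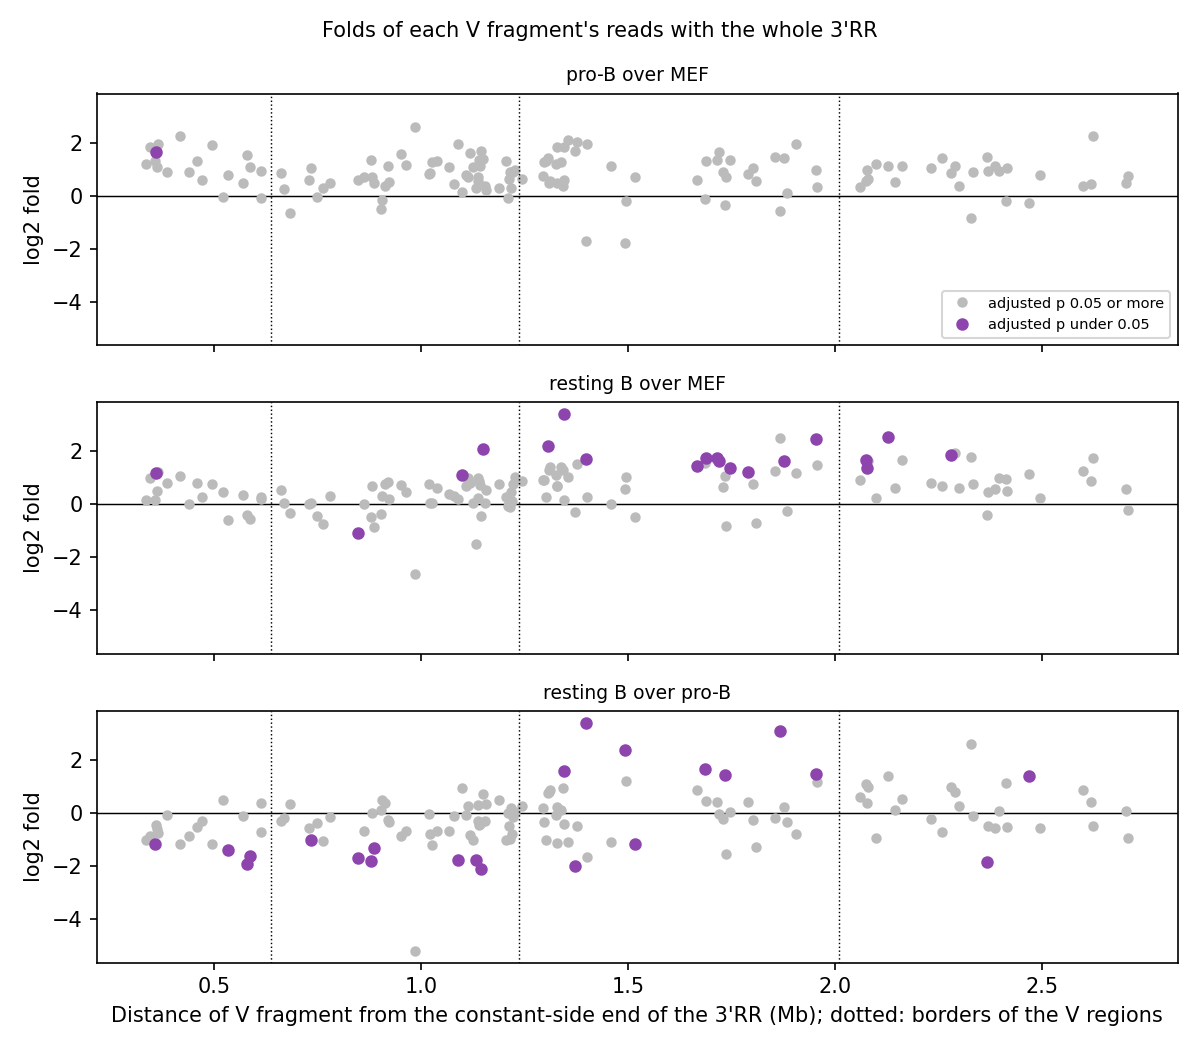
Log2 fold of the reads of each V fragment with the whole 3'RR (points, coloured where the adjusted p is under 0.05) against its distance in Mb from the constant-side end of the 3'RR, with dotted lines at the borders of the 4 V stretches. Called fragments number 19 of 140 for resting B over MEF and 22 of 140 for resting B over pro-B, where 31.8% and 36% of all sums passed.

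The order of V partners of one 3'RR fragment resembled that of another. Over 70 forward V fragments, Pearson's r between the log2 (CPM + 1) values of REV 22 and REV 27 was 0.855 for resting B cells, 0.853 for pro-B cells and 0.910 for MEF, and over the 71 reverse V fragments FOR 25 and FOR 31 with 0.799, 0.785 and 0.840. The lowest values of the 12 such pairs were 0.490 in resting B cells (FOR 23 and FOR 31), 0.570 in pro-B cells (REV 22 and REV 24) and 0.514 in MEF (FOR 25 and FOR 28). These points share primers, libraries and distance from the 3'RR, and the values describe them without a test.

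Other contacts of the V array gave different medians over the same comparisons, given as a description. For pairs of the constant genes with V the median log2 fold was -0.37 for pro-B over MEF, 0.54 for resting B over MEF and 0.91 for resting B over pro-B. For the flank beyond the 3'RR it was 0.71, 1.77 and 1.24, and for the D-J segments -0.32, 0.15 and 0.49. Of these 4 lists the 3'RR had the only negative median for resting B over pro-B (-0.61). That median covers tested pairs, of which 92 had under 10 reads in both resting B libraries and 20 in both pro-B libraries. Such counts are not given for the other lists, so the contrast cannot be read as support. Among the 3'RR fragments REV 22, FOR 23, REV 24, FOR 25 and FOR 28 had negative medians, and REV 27, REV 29 and FOR 31 positive ones.

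The borders of the rule are positions, with no jump in value required there. Just outside, FOR 20 in the flank (114409003 to 114420752) had 495 and 469 CPM with the V array in the resting B, 334 and 508 CPM in the pro-B, and 239 and 214 CPM in the MEF libraries, next to REV 22 inside with 793 and 814, 1336 and 1519, and 389 and 551 CPM. REV 33 among the constant genes (114486613 to 114491122) had 4280 and 4755 CPM in the resting B, 2017 and 2287 CPM in the pro-B, and 2152 and 1867 CPM in the MEF libraries, next to FOR 31. At the V end, FOR 117 outside had 14.5 and 13.1, 52.8 and 22.0, and 10.4 and 22.7 CPM with the 3'RR, against 61.4 and 79.3, 197 and 87.3, and 61.5 and 63.5 CPM for REV 125 inside. At the far end, REV 810 outside had 42 and 49.1 CPM in the resting B, 29.1 and 34.2 CPM in the pro-B, and 21.8 and 24.8 CPM in the MEF libraries, against 61.2 and 49.9, 112 and 101, and 84.4 and 43.6 CPM for FOR 792 inside.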

How the data were processed

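The authors deposited unnormalized counts, one for each primer pair that had valid reads, and the reads were 42 bases long per the file headers. Per the submitters' processing notes, Novoalign was used with mm9, but its version was not stated in the sources used here. Pairs not listed were set to 0. No molecular identifiers are recorded, so intervals and floors cover counting error only. Replicates differed by more than sampling noise and were counted separately.

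Testing used edgeR 4.0.16 (R 4.3.3) with TMM over cis pairs. Its quasi-likelihood model held cell type and no other term, was fitted to the 6 libraries together, and took pairs that reached 10 reads in 2 or more libraries. P-values were adjusted by Benjamini-Hochberg with a threshold of 0.05. Sums over regions and over fragments by region had separate fits of the same form, with the library sizes and TMM factors of the pairs. Sums with the gene desert had their own fit, library totals and TMM factors over fragments. SE is the log2 fold over the square root of F. Ratios used limma 3.58.1 with 0.5 reads added. Alternatives included DESeq2 1.42.0. Scripts were tested on simulated data.

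Named pairs are the most abundant and, per comparison and direction, up to 10 past the threshold in order of p with groups separated (5 where none passed), and up to 5 V fragments. The members, stretches and rules were chosen with earlier results of these data known. Same-numbered replicates did not deviate together (correlations of -0.03, 0.006 and 0.0875 for pro-B over MEF, resting B over MEF and resting B over pro-B), so the number only names a library.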

Additional observations from a re-analysis of the deposited data

How the results depend on the processing

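With desert reads as the scale, passing sums of 3'RR fragments by V stretch numbered 3 (pro-B over MEF), 6 (resting B over MEF) and 5 (resting B over pro-B), and passing V fragments 2, 10 and 4. With total Igh reads, 11 such sums passed for resting B over pro-B, and 2 and 10 V fragments for pro-B over MEF and resting B over pro-B. The median log2 fold of all Igh pairs then stood at 0.19, 0.45 and 0.29 on desert reads and at -0.04, 0.20 and 0.28 on total Igh reads, and that of the 3'RR to V pairs at 1.15, 0.82 and -0.40, and at 0.94, 0.57 and -0.37. DESeq2 called 13 and 18 sums for pro-B and resting B over MEF, 30, 56 and 134 single pairs over the 3 comparisons (pro-B over MEF, resting B over MEF, resting B over pro-B), and 35, 43 and 34 V fragments. With the 4 compared libraries alone, 0, 23 and 10 sums passed, with 127 and 0 pairs in the resting B comparisons, and 0, 61 and 10 V fragments. With a distance correction 5 sums passed for resting B over MEF (1 higher and 4 lower) and 67 pairs for resting B over pro-B (4 higher and 63 lower). That correction gave 5 and 7 V fragments for pro-B and resting B over MEF. At least 50 reads left 0 V fragments for pro-B over MEF, and desert pairs in the fit, chosen after seeing the data, left 0 pairs for resting B over MEF. With the replicate number as a block, 0 and 10 pairs passed in the resting B comparisons, 0 V fragments for pro-B over MEF, and proximal V moved to 0.80 (adjusted p = 0.0544) for resting B over MEF and -0.82 (adjusted p = 0.0551) for resting B over pro-B in edgeR. The block changed no other call counted or summed here by over 1.5 times.

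Among sums over stretches, log2 folds that crossed the threshold or turned were as follows. For pro-B over MEF, DESeq2 gave 0.95 with far distal and 0.83 with middle V, and the distance correction 1.73 and 1.18. Middle V was 0.51 with each pair counted once and 0.80 without REV 545. Near distal V turned to 0.23 on desert reads, 0.45 with the distance correction, 0.44 with each pair counted once, 0.51 with each counted once and 0.5 reads added, and 1.08 without REV 545. Proximal V lost its call at 1.49 on total Igh reads and 1.68 on desert reads. For resting B over MEF, far distal V lost its call at 1.81 on desert reads, 0.65 with the distance correction and 0.36 with 0.5 reads added. Near distal V was 1.98 with the distance correction, 0.48 with 0.5 reads added and -1.16 without the most abundant pair. Middle V turned to -0.023 with each pair counted once and -0.43 with 0.5 reads added. Proximal V was 0.98 on total Igh reads, 1.22 on desert reads, 0.13 with each pair counted once and -0.15 with 0.5 reads added. For resting B over pro-B, far distal V turned to -1.08 with the distance correction (adjusted p = 0.0204, edgeR) and -0.092 with 0.5 reads added. Near distal V was 1.53 with the distance correction, 0.075 with each pair counted once, -0.024 with 0.5 reads added, 0.050 without REV 545 and -0.37 without the most abundant pair. Middle V was -0.53 with each pair counted once and -1.03 with 0.5 reads added. Proximal V was -0.52 on total Igh reads, -0.45 on desert reads, -0.76 with the 4 libraries and -0.78 with the distance correction. Outside these sums, FOR 25 with near distal V turned to 1.00 for resting B over MEF without REV 545, and REV 545 with the 3'RR to -1.34 for resting B over pro-B without the most abundant pair. The setting without REV 545 was chosen after the values were seen. Apart from the alternatives that leave out pairs, the cause was not tested.

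Leaving out 1 library at a time gave 0 to 15, 0 to 23 and 0 to 25 sums of fragments by stretch in the same order of comparisons, 0 to 161, 0 to 138 and 0 to 214 pairs, 0 to 47, 0 to 63 and 0 to 54 V fragments, and 0 to 2, 0 to 3 and 0 to 4 desert values of 3'RR fragments. Sums over stretches ranged for pro-B over MEF from 1.24 to 1.94 (proximal), 0.67 to 0.91 (middle), -0.87 to 0.50 (near distal, with 0.091 without pro-B replicate 1 and 0.50 without MEF replicate 1) and 0.50 to 1.24 (far distal). For resting B over MEF they ranged from 0.69 to 0.91, 0.34 to 0.40, 1.54 to 3.22 and 1.26 to 1.40 in the same order, and for resting B over pro-B from -1.15 to -0.45, -0.55 to -0.31, 1.86 to 3.27 and 0.087 to 0.82. Counting error is small for the sums and large for pairs near the 10-read minimum.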
